A study of Homo sapiens with 16 samples.

Results

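Matrix proteases and their inhibitors were followed here through 8 genes chosen by symbol: the matrix metalloproteinases MMP1, MMP2 and MMP14, the tissue inhibitors TIMP1, TIMP2 and TIMP3, the urokinase gene PLAU and its receptor PLAUR. All 8 were found once in each deposited table of 60669 genes. They were measured in HMC3, an established human line described as microglial, with the genotype WT (unedited METTL3) or METTL3 KO, where METTL3 is the enzyme that places N6-methyladenosine (m6A) on mRNA. The study title names the question of m6A loss and cell death. No treatment, time point or agent is given for any group, and how the knockout was made or whether it is 1 clone is not given in the sources used here. RNA-seq libraries of 2 kinds were made from each genotype. Smart-seq2 libraries of poly(A) RNA, 5 per genotype, were available as the authors' deposited table of a single comparison. Libraries depleted of ribosomal RNA, 3 per genotype, were available as TPM, a transcript level per unit of gene length that adds up to a constant sum for each library, so that genes can be compared with each other.

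Collagens, laminins and other matrix proteins are cleaved outside the cell by zinc-dependent matrix metalloproteinases and by serine proteases. The metalloproteinases are made as inactive proenzymes, and TIMPs block the active enzymes by binding the catalytic site. Urokinase, held at the surface by its receptor, turns plasminogen into plasmin, which degrades fibrin and matrix and can activate some proenzymes, while serpins such as protease nexin-1 (SERPINE2) inactivate urokinase. Activated microglia and fibroblasts both use these enzymes when they migrate or remodel tissue.

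Facts of the libraries bear on every value below. The recovered depth was 266157 to 487272 reads in the wild-type libraries and 512627 to 1267171 reads in those labelled knockout, so low genes were better covered in the knockout label. Knockout-labelled libraries 1 and 2 were not told apart beyond sampling noise (chi-square p = 0.065 over 10120 genes) and were counted as 1 sample, so that tests compared 3 samples with 2. Nothing in the labels says that libraries of a genotype came from separate cultures, so p-values measure only the spread between them. METTL3 itself did not fall, at 25.4 to 31.6 TPM in the wild type and 39.2 to 42.7 TPM in the knockout label (limma adjusted p = 0.106, over alternatives 0.0486 to 0.898), nor did it in the authors' deposited table (log2 fold change 0.09, adjusted p = 0.654), so its mRNA does not check the label. Of 12 markers of microglia and macrophages, 9 were listed at 0 in all 6 libraries, among them AIF1, CX3CR1, P2RY12, TMEM119, ITGAM, PTPRC and SPI1, and the list summed to 0 to 6.47 TPM. Of 10 fibroblast and mesenchymal markers, 6 had at least 1 TPM in all 6 libraries and LUM was listed at 0. The fibroblast list summed to 11320 to 13760 TPM in the wild type and to 3384 to 3504 TPM in the knockout label. Most of that sum was COL1A1, at 9612 to 11990 TPM in the wild type and 749 to 865 TPM in the knockout label. COL1A1, COL1A2, COL5A1 and PDGFRB fell, while FN1 (802 to 871 and 2168 to 2237 TPM, limma adjusted p = 0.00125) and THY1 (121 to 131 and 248 to 270 TPM, 0.00256) rose. Neuronal markers, 4 in number with RBFOX3 at 0, summed to 0 to 3.63 TPM and 10.6 to 12.1 TPM. The part of these lists in the differences below was not tested, and in bulk RNA fewer cells of a type and less RNA per cell cannot be told apart.

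In the rRNA-depleted libraries PLAU, PLAUR, TIMP1 and TIMP2 rose in the knockout label, and MMP1, MMP2, MMP14 and TIMP3 did not pass the test. In the poly(A) libraries PLAU and PLAUR rose and the other 6 did not pass. The authors' deposited table does not name its numerator, and a positive value was read as higher in the knockout label, since most large changes then had the sign seen in the rRNA-depleted libraries. That is 4 of 8 called higher by limma (adjusted p under 0.05), where 22.9% of all 14789 genes tested were called higher and 12.4% lower, and no member was called lower. Over all genes 64.8% of the calls were higher in the knockout label, and 48.6% were with median ratio scaling, which lowered the median log2 change of all genes to 0.11. All 8 members passed the filter on low values. The median log2 change was 0.98 over the 8 members and 0.41 over all genes tested. MMP1 and MMP2 had at most 3 reads in every wild-type library, and with both set at their bound against 3 reads the members' median was 0.71. Values of the 3 and 3 libraries did not overlap for 5 of 8 members, all higher in the knockout label, against 38.4% of all genes tested (58.4% in either direction). By the adjusted p of the authors' deposited table (under 0.05), 2 of 8 members were higher and none lower, where 9.55% of 14009 genes were higher, 10.3% lower and 19.9% either. Called higher in both library types were 2 of 8 members, against 648 of 12498 genes (5.18%). For scale, 1338 of all genes were called higher in the authors' deposited table. Since the sign of the authors' values was read by such agreement, PLAU included, the shared direction is partly built in.

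**Figure D1:**
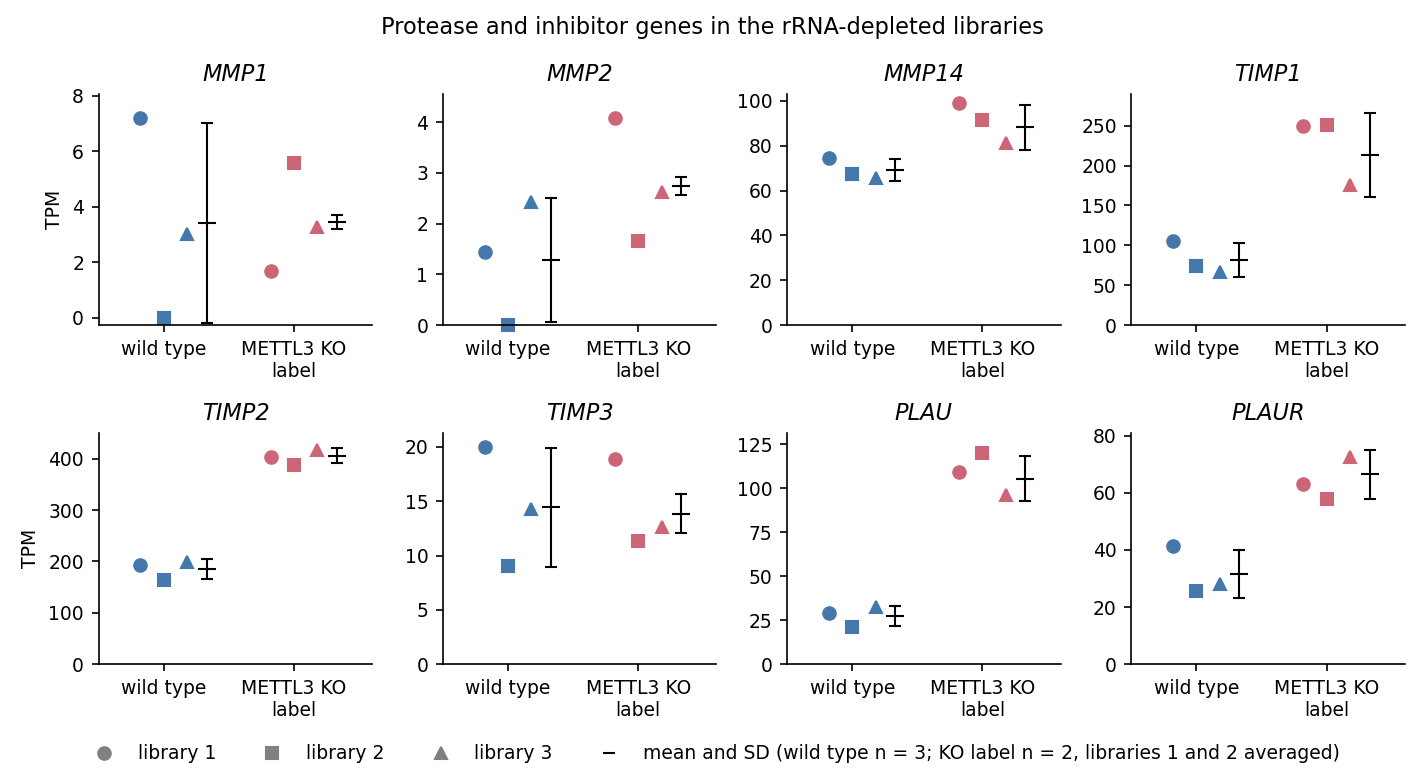
TPM of each of the 8 genes in each rRNA-depleted library (circle, square and triangle are libraries 1 to 3), with the mean and SD of 3 wild-type samples and of 2 knockout-labelled samples (libraries 1 and 2 averaged). PLAU lies at 21.0 to 32.5 TPM in the wild type and at 96.3 to 119.8 TPM in the knockout label, while TIMP3 overlaps between the labels.

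PLAU encodes urokinase, the plasminogen activator that acts mainly on cell surfaces (ENSG00000122861; chromosome 10, 73909177 to 73917497, plus strand, GRCh38). In wild-type libraries 1 to 3 its level was 28.8, 21.0 and 32.5 TPM, and in knockout-labelled libraries 1 to 3 it was 109, 120 and 96.3 TPM. Every knockout-labelled library was thus above every wild-type one. The wild-type mean of 27.4 ± 5.83 TPM (SD, n = 3) compared with a mean of 105 ± 12.8 TPM (SD, n = 2), a ratio of 3.84. On the log2(TPM + 1) scale, used for every rRNA-depleted log2 change below, PLAU changed by 1.92 (SE 0.23, 95% interval 1.34 to 2.50; limma adjusted p = 0.0042), or 1.51 relative to the median of all genes. Counted reads were 6 to 16 per wild-type library and 44 to 129 per knockout-labelled library. Over 16 alternative settings the log2 change stayed above 0 and the limma adjusted p ran from 1.03e-05 to 0.0567, the highest without knockout-labelled library 3, where the log2 change was 2.04 and 1 averaged sample stood for the knockout label. C10orf55, on the opposite strand, shares 916 of the 2950 exonic bases of PLAU and had at most 2 reads in any library. The authors' deposited table gave PLAU 1.82 (log2 fold change, SE 0.10; adjusted p = 2.65e-74), the 11th smallest among 14009 genes.

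PLAUR encodes the urokinase receptor, which is anchored at the cell surface by a lipid tail (ENSG00000011422; chromosome 19, 43646095 to 43670547, minus strand, GRCh38). Wild-type libraries held 41.3, 25.5 and 28.2 TPM and knockout-labelled ones 63.2, 57.8 and 72.4 TPM. The labels did not overlap, although wild-type library 1 was nearer to the knockout-labelled libraries than the other wild-type libraries were. The log2 change was 1.07 (SE 0.26, 95% interval 0.43 to 1.71; limma adjusted p = 0.0273), or 0.66 relative to the median of all genes. This call was lost with median ratio scaling (log2 change 0.72, limma adjusted p = 0.0819) and without wild-type library 2 (0.0524), wild-type library 3 (0.0678) or knockout-labelled library 3 (0.196), and over 16 alternatives the adjusted p ran from 0.00773 to 0.196. The authors' deposited table gave PLAUR 0.57 (log2 fold change, SE 0.11; adjusted p = 1.06e-05). Urokinase and its receptor were therefore called higher in each library type, PLAU by the larger log2 value in each.

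The promoters of PLAU and PLAUR are shown because these 2 members rose in both library types. The sequences are RefSeq's on GRCh38.p14, the 250 bases before the start on the gene's own strand, chr10:73910882-73911131 (plus) for PLAU and chr19:43670170-43670419 (minus) for PLAUR, with motif matches in capitals.
PLAU: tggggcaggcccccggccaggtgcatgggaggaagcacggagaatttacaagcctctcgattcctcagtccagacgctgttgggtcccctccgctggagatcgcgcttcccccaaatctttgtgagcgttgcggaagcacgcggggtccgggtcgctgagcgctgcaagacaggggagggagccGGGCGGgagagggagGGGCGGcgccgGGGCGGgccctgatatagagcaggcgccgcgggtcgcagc
PLAUR: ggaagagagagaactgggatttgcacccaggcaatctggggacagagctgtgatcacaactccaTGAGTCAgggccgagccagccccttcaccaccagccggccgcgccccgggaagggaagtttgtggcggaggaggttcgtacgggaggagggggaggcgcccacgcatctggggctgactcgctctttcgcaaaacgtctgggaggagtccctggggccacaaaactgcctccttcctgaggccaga

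Searched on both strands were the AP-1 motif TGANTCA, the GC box GGGCGG, the TATA motif TATAAA and an interferon-response motif, GAAA followed by any 2 bases and GAAA. The PLAU window held 3 GC boxes, the nearest ending 35 bases before the start, and none of the other 3 motifs. The PLAUR window held an AP-1 match, TGAGTCA, 186 to 180 bases before the start, and no GC box. A window before an upstream PLAU start in the same table held none of the 4. Over 35116 promoters of this length, 42.6% held a GC box, 6.57% the AP-1 motif, 10.7% the TATA motif and 3.02% the interferon-response motif. The 2 promoters thus shared none of these motifs, which is a description of letters and not of binding. The table had 5 of the 8 members, and among these the window of TIMP1 held 2 GC boxes, that of MMP14 held 1 and that of TIMP3 held 5.

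Of the metalloproteinases, only MMP14 was well covered. MMP14 is the membrane-anchored collagenase MT1-MMP, which also activates proMMP2 at the cell surface (ENSG00000157227; chromosome 14, 22836557 to 22849027, plus strand, GRCh38). Its levels were 74.6, 67.2 and 65.7 TPM in the wild type and 99.1, 91.4 and 81.0 TPM in the knockout label. The groups did not overlap, yet the log2 change of 0.34 (SE 0.14, 95% interval -0.01 to 0.70) did not pass (limma adjusted p = 0.116) and was -0.07 relative to the median of all genes. It passed with the GC trend removed (log2 change 0.88, limma adjusted p = 0.0182) and with the 6 libraries kept separate (0.38, 0.0404), and was -0.01 under median ratio scaling (0.97), the ends of the range over 16 alternatives being 0.0182 and 0.97. The authors' deposited table gave MMP14 -0.01 (log2 fold change, SE 0.47; adjusted p = 0.997), from a mean normalized count of 8.37.

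MMP1, the interstitial collagenase, and MMP2, the gelatinase that cleaves denatured collagen, were near the limit of detection. MMP1 (ENSG00000196611; chromosome 11, 102789920 to 102798160, minus strand, GRCh38) measured 7.19, 0 and 3.04 TPM in wild type and 1.70, 5.56 and 3.28 TPM in the knockout label, which is 3 reads in all against 6. MMP2 (ENSG00000087245; chromosome 16, 55389700 to 55506691, plus strand, GRCh38) measured 1.44, 0 and 2.43 TPM and 4.08, 1.67 and 2.62 TPM, or 3 reads against 11. In wild-type library 2, where both were listed at 0, 3 reads would equal 15.8 TPM for MMP1 and 6.29 TPM for MMP2. No fold is given for either, and a difference was not detectable at this depth (limma adjusted p = 0.73 for MMP1 and 0.332 for MMP2). The authors' deposited table likewise gave no call, with log2 fold changes of 0.13 (SE 0.55, adjusted p = 0.916) for MMP1 and -1.89 (SE 1.16, adjusted p = 0.277) for MMP2.

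TIMP2, an inhibitor that also takes part in activating proMMP2 together with MMP14, was the most abundant member (ENSG00000035862; chromosome 17, 78852977 to 78925387, minus strand, GRCh38). It reached 194, 164 and 199 TPM in wild type and 403, 388 and 416 TPM in the knockout label, from 89 to 798 reads per library. The knockout-labelled libraries, with a mean of 406 ± 14.4 TPM (SD, n = 2), were all above the wild-type ones, whose mean was 185 ± 19.0 TPM (SD, n = 3). Its log2 change was 1.13 (SE 0.12, 95% interval 0.82 to 1.44; limma adjusted p = 0.00331), or 0.72 relative to the median of all genes. The adjusted p ran from 3.01e-08 to 0.0511 over 16 alternatives, the highest without knockout-labelled library 3 (log2 change 1.10).

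CEP295NL lies inside TIMP2 on the same strand and shares 198 of the 5633 exonic bases of TIMP2 in GENCODE 29. CEP295NL had 123, 131 and 158 TPM in wild type and 31.6, 31.8 and 11.7 TPM in the knockout label, so it fell while TIMP2 rose (log2 change -2.76, limma adjusted p = 0.00738). How reads in the shared bases were assigned is not given in the sources used here, and their part in the TIMP2 value was not tested.

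TIMP1, a secreted inhibitor of most soluble metalloproteinases (ENSG00000102265; chromosome X, 47582313 to 47586789, plus strand, GRCh38), had 106, 73.9 and 66.0 TPM in wild type and 250, 251 and 176 TPM in the knockout label. The labels did not overlap, and knockout-labelled library 3 was the lowest of its group. The log2 change was 1.38 (SE 0.26, 95% interval 0.72 to 2.04; limma adjusted p = 0.0143), or 0.97 relative to the median of all genes. The adjusted p ran from 0.000136 to 0.0858 over 16 alternatives, the highest without knockout-labelled library 3, where the log2 change was 1.63.

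TIMP3 is the member of the family that binds to the matrix itself (ENSG00000100234; chromosome 22, 32801701 to 32863043, plus strand, GRCh38). Its levels of 20.0, 8.99 and 14.3 TPM in the wild type and 18.9, 11.3 and 12.6 TPM in the knockout label overlapped. The log2 change was 0.01 (SE 0.41, 95% interval -1.02 to 1.03; limma adjusted p = 0.992), an interval that still includes a change of 1 in either direction. SYN1 and SYN3, the neuronal genes that contain TIMP1 and TIMP3 on the opposite strand, were listed at 0 in all 6 libraries.

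The poly(A) values of the inhibitors passed in no case. In the authors' deposited table TIMP1 had a log2 fold change of -0.07 (SE 0.13, adjusted p = 0.765), with a 95% interval from its SE of -0.33 to 0.18. TIMP2 in the authors' deposited table had -0.38 (SE 0.18, adjusted p = 0.122), and TIMP3 had 0.44 (SE 0.47, adjusted p = 0.576). The interval of TIMP2 was -0.73 to -0.03 there and 0.82 to 1.44 in the rRNA-depleted libraries. Because the poly(A) table holds no value for a single library, the difference between the library types was not tested. The median log2 fold change of all genes in the authors' deposited table was 0.02, against 0.41 in the rRNA-depleted libraries.

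**Figure D2:**
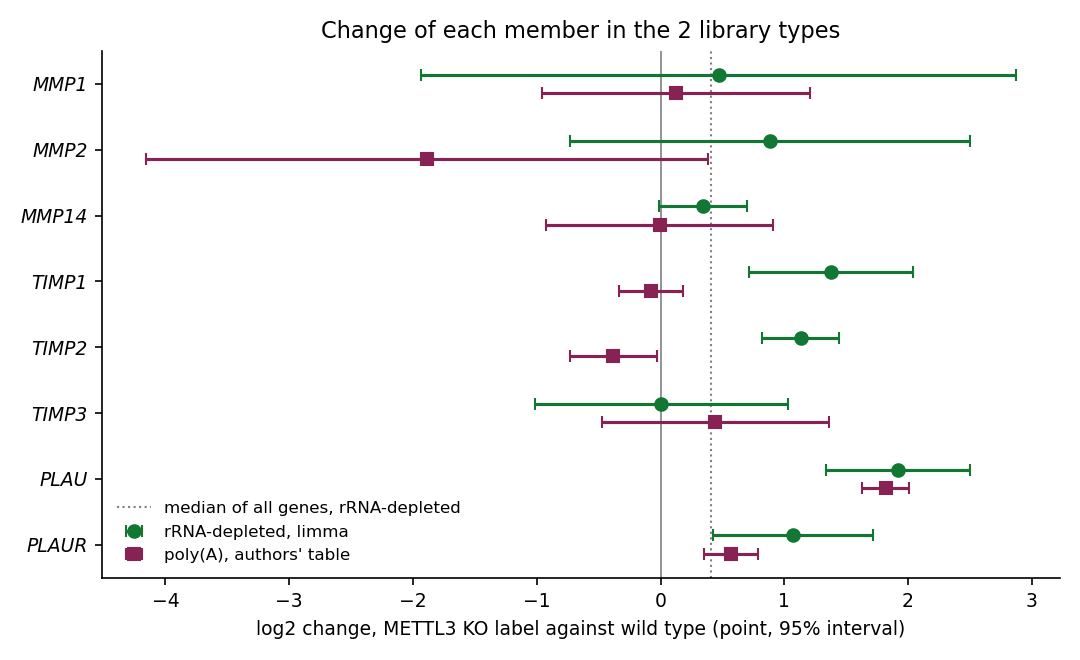
Log2 change of each member, knockout label against wild type, with 95% intervals: circles are limma on log2(TPM + 1) in rRNA-depleted libraries and squares are the authors' deposited poly(A) values with intervals from their SE. PLAU lies near 1.9 and 1.8 in the 2 types, while TIMP1 and TIMP2 lie above 1 in the first and at -0.07 and -0.38 in the second.

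Ratios of (TPM + 1) between members were taken within each library, and 6 were examined, of which 5 are given. The added 1 weighs most in ratios with MMP1 or MMP2, whose levels are low. The summed TPM of MMP1, MMP2 and MMP14 was 67.2 to 83.2 in the wild type and 86.9 to 105 in the knockout label, of which MMP14 made 89.6% to 100.0%. The summed TPM of TIMP1, TIMP2 and TIMP3 was 246 to 319 in the wild type and 605 to 672 in the knockout label, of which TIMP2 made 59.7% to 71.2%. Over these genes only, there were thus more inhibitor than enzyme transcripts in every library. Other proteases were not in the sums, among them ADAMTS1 at 335.5 to 408.6 TPM in the wild type and 286.2 to 315.6 TPM in the knockout label. The log2 ratio of the summed MMPs to the summed TIMPs was -1.93, -1.86 and -1.96 in the wild type and -2.67, -2.71 and -2.78 in the knockout label. The difference of -0.82 meant a ratio 1.77 times lower, with no overlap, and the two-sided exact permutation p was 0.2 (0.4 adjusted over the 6 ratios), the smallest that 3 against 2 samples allow. With 6 separate libraries it was 0.1, also the smallest allowed, so this design cannot pass 0.05. Of all single genes tested, 58.4% did not overlap in either direction, and no such share was taken over ratios. In the authors' deposited table MMP14 was at -0.01, TIMP1 at -0.07, TIMP2 at -0.38 and TIMP3 at 0.44 (log2 fold change), none past the threshold. MMP14 thus lay above TIMP1 and TIMP2 and below TIMP3 in poly(A) log2 fold change, and these differences were not tested. Ratios within single libraries could not be taken from the poly(A) values. The lower ratio was seen in the rRNA-depleted libraries, where no test could pass 0.05.

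The ratio of MMP14 to TIMP2 likewise did not overlap, with log2 values of -1.27 to -1.58 in the wild type and -2.01 to -2.35 in the knockout label (difference -0.79, exact permutation p = 0.2). PLAU relative to PLAUR went the other way, from -0.51, -0.27 and 0.20 to 0.78, 1.04 and 0.41 (difference 0.85, exact permutation p = 0.2), also without overlap. The ratios of MMP1 to TIMP1 and of MMP2 to TIMP2 rested on few reads, overlapped, and changed sign with the pseudocount, to 0.04 and 0.83 with 0.1 in place of 1.

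**Figure D3:**
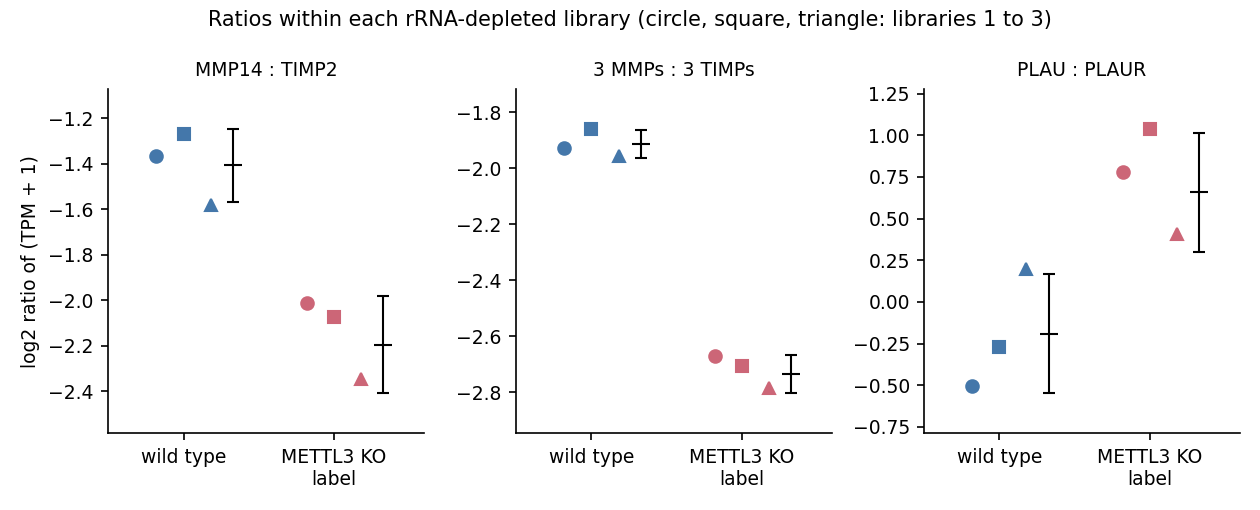
Log2 ratios of (TPM + 1) within each rRNA-depleted library for 3 of the ratios, with the mean and SD of 3 wild-type and 2 knockout-labelled samples. The summed MMPs relative to the summed TIMPs lie at -1.96 to -1.86 in the wild type and at -2.78 to -2.67 in the knockout label, and PLAU relative to PLAUR lies at -0.51 to 0.20 and at 0.41 to 1.04.

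The other genes of the pathway were taken from a list of 76 proteases, inhibitors and partners. In the rRNA-depleted libraries 45 were tested, of which 15 rose, 4 fell and 26 did not pass, and 19 of the 76 were listed at 0 in all 6 libraries. The median log2 change of the 45 was 0.51 against 0.41 for all genes, or 0.27 with 9 genes at their bound against 3 reads and 2 left out. The called share was 33.3% higher and 8.89% lower, against 22.9% and 12.4% of all genes. Among those called, MMP19, MMP25, HTRA1 and ADAM33 had at most 3 reads in every library of a label, so only bounds against 3 reads are given. The knockout-labelled mean of MMP19, MMP25 and HTRA1 was 0.75, 0.80 and 0.92 times their wild-type bound. No rise is thus shown for them at the bound, although the 33.3% counts them. ADAM33 was at least 2.66 times lower. Median ratio scaling brought the calls of the list to 8 higher and 5 lower. An adjusted p was given to 42 of them in the authors' deposited table, where 8 rose and 8 fell, with a median log2 fold change of -0.17. Over all genes with an adjusted p there, 9.55% were higher and 10.3% lower, with a median of 0.02.

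The plasminogen system, 10 genes around PLAU and PLAUR, had 8 members tested in the rRNA-depleted libraries, of which 6 rose, none fell and 2 did not pass, with a median log2 change of 1.93, against 22.9% of all genes higher, 12.4% lower and a median of 0.41. Its median was the highest among the groups of the list. The other medians were 1.18 for other inhibitors (1 of 4 rose) and 0.56 for other partners (4 of 8 rose). They were 0.31 for other metalloproteinases (of 6, 2 rose and 2 fell), 0.02 for ADAMs (of 8, 1 rose and 2 fell) and -0.31 for ADAMTS (1 of 11 rose). The 2 metalloproteinases that rose were MMP19 and MMP25, and HTRA1 was among the 4 partners, all without a rise shown at the bound. With genes at their bound against 3 reads, the median was -0.56 for other metalloproteinases and 0.45 for other inhibitors. It was then 0.51 for other partners, 2.16 for the plasminogen system, and unchanged for ADAMs and ADAMTS. Of the 7 plasminogen genes with an adjusted p in the authors' deposited table, 3 rose and 1 fell, against 9.55% and 10.3% of all genes. PLAT and SERPINE2 were among those that rose in both types. SERPINE2, which encodes the urokinase and thrombin inhibitor protease nexin-1, went from 11.2, 16.3 and 14.8 TPM to 168, 159 and 159 TPM. On the log2 scale it changed by 3.44 (SE 0.21, limma adjusted p = 0.00115), and the authors' deposited table gave it 2.99 (SE 0.07), with the smallest adjusted p of all genes, listed as 0. PLAT, the tissue-type activator, stood at 14.5 to 25.7 TPM and 88.2 to 95.7 TPM (log2 change 2.16, SE 0.27, limma adjusted p = 0.00454), with 0.67 (SE 0.09) in the authors' deposited table. Without knockout-labelled library 3 the call of PLAT was lost (limma adjusted p = 0.0729), the highest of its 16 alternatives, which began at 7.11e-09. The activators PLAU and PLAT and the inhibitor SERPINE2 were thus called higher in both library types. PLG itself, the substrate of the system, had a value above 0 only in wild-type library 2, at 1.6 TPM.

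S100A10, a partner of annexin A2 that binds plasminogen at the cell surface, had opposite calls. It rose from 13.8, 67.1 and 31.0 TPM to 287, 259 and 247 TPM (log2 change 3.03, SE 0.63, limma adjusted p = 0.0184), and fell in the authors' deposited table (log2 fold change -0.82, SE 0.10). ADAM19, a sheddase, fell in the rRNA-depleted libraries (log2 change -0.98, limma adjusted p = 0.0194) and was higher in the authors' deposited table (0.54). PRSS23, a serine protease, rose in the former (1.53, limma adjusted p = 0.0274) and was lower in the authors' deposited table (-0.81). S100A10, ADAM19 and PRSS23 were the 3 genes of the list with opposite calls, and each lost its call without knockout-labelled library 3 (limma adjusted p = 0.166, 0.147 and 0.163, the highest of their alternatives). The call of S100A10 was also lost without wild-type library 3 (0.0501), and that of ADAM19 without wild-type library 1 (0.0563) and with the GC trend removed (log2 change -0.52, 0.122). That of PRSS23 was also lost without wild-type library 1 (0.0533), with the GC trend removed (0.0567), and under median ratio scaling (0.0618) or quantile normalization (0.0759).

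Of the other membrane-anchored metalloproteinases in the rRNA-depleted libraries, MMP15 and MMP24 fell, and MMP16 (limma adjusted p = 0.124) and MMP17 (0.155) did not pass. MMP25 was called higher (limma adjusted p = 0.00707) from a wild type listed at 0. Its knockout-labelled mean was 0.80 times the wild-type bound of 3 reads, so no rise is shown for MMP25 at that bound. MMP15, the membrane-anchored MT2-MMP, fell from 54.5, 51.5 and 54.2 TPM to 10.6, 19.2 and 11.7 TPM (log2 change -1.94, SE 0.19, limma adjusted p = 0.00268), and with the GC trend removed its log2 change was -1.04 (0.0308, the highest of 16 alternatives, which began at 3e-08). MMP24, MT5-MMP, fell from 19.3, 25.8 and 13.6 TPM to 3.80, 1.24 and 2.93 TPM (log2 change -2.42, SE 0.41, limma adjusted p = 0.0102). These values came from 12, 11 and 10 reads in wild type and only 5, 2 and 2 in the knockout label. With the GC trend removed the log2 change of MMP24 was -1.83, and under quantile normalization it was -3.06. The call of MMP24 was lost without knockout-labelled library 3 (limma adjusted p = 0.0854, the highest of 16 alternatives). In the authors' deposited table neither passed, at 1.41 (SE 0.89) for MMP15 and -0.71 (SE 0.59) for MMP24. Of 20 metalloproteinases outside the 8 members, 11 were listed at 0 in all 6 libraries, among them MMP3, MMP7 and MMP13.

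ADAMTS6 and TFPI2 were also among the 5 list genes of at least 5 TPM that rose most in the rRNA-depleted libraries. ADAMTS6, a matrix protease with thrombospondin repeats, changed by 2.55 (log2, SE 0.42, limma adjusted p = 0.00976), and TFPI2, a Kunitz-type inhibitor of plasmin, had 2.18 (SE 0.57, limma adjusted p = 0.0355). ADAMTS6 had 6, 2 and 4 reads in wild type and 74, 69 and 30 in the knockout label. TFPI2 had 5, 1 and 2 reads against 33, 34 and 11, so both log2 values rest on few wild-type reads. Neither passed in the authors' deposited table (0.49, adjusted p = 0.102, and 0.48, adjusted p = 0.0731). The call of ADAMTS6 was lost without knockout-labelled library 3 (limma adjusted p = 0.0854), and that of TFPI2 under 6 of 16 alternatives, up to 0.181 without the same library. The other list genes named by the poly(A) values were CST3, which was higher (0.50), and ADAMTS12 (-0.44) and ADAMTS1 (-0.34), which were lower in the authors' deposited table. None of CST3, ADAMTS12 and ADAMTS1 passed in the rRNA-depleted libraries (limma adjusted p = 0.355, 0.127 and 0.0987). ADAMTS1 passed, lower, under median ratio scaling (log2 change -0.68, 0.00926), with voom (-0.57, 5.69e-07) and with 6 libraries separate (-0.30, 0.048). ADAMTS12 passed, higher, with voom (0.82, 0.0426) and with 6 libraries separate (1.09, 0.0421).

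**Figure D4:**
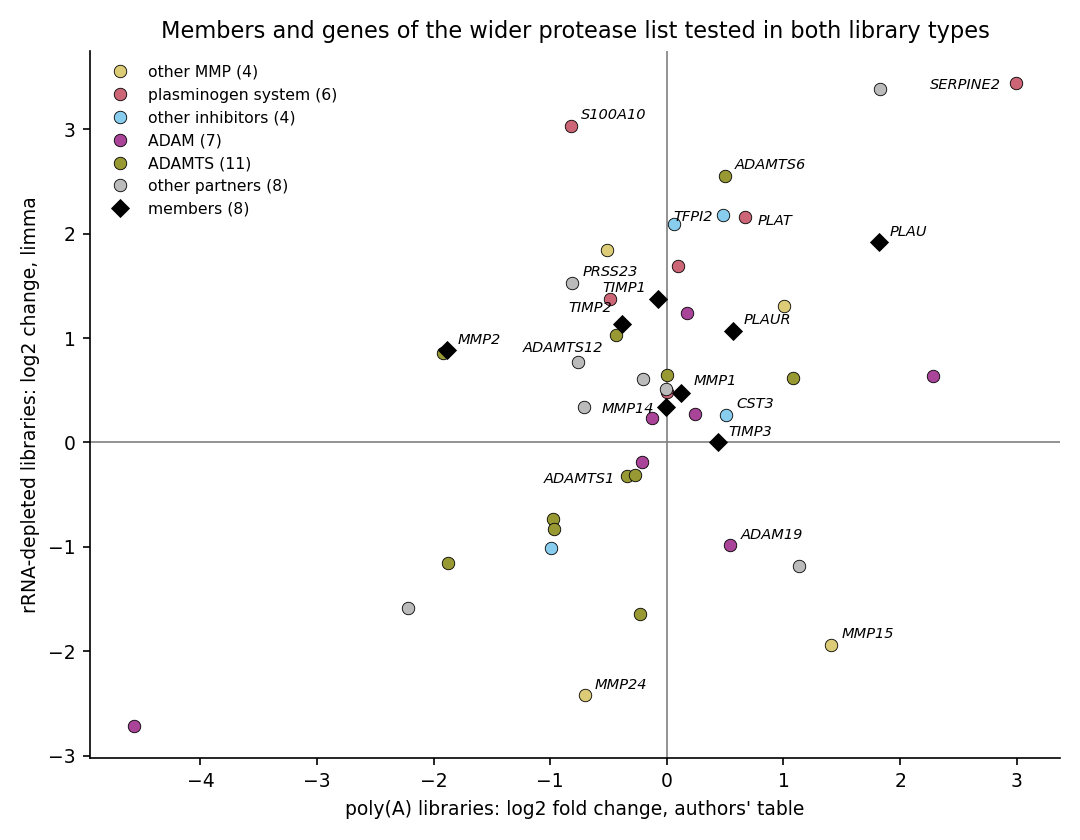
The plot shows 48 genes of the members and the wider list that were tested in both library types, with the authors' deposited poly(A) log2 fold change on the x axis and the limma log2 change of the rRNA-depleted libraries on the y axis. PLAU, PLAUR, PLAT and SERPINE2 lie to the upper right, S100A10 and PRSS23 to the upper left.

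Since m6A was the mark of interest, the letters GGACT, a frequent core of m6A sites (GGACU in RNA), were counted in the principal transcript of each member in GENCODE 29. No methylation was measured in these files. The count was 5 in PLAU (2.15 per kb) and 8 in MMP14 (2.14 per kb), 1 each in PLAUR and TIMP1, 3 in TIMP2, 6 in MMP2 and 2 each in MMP1 and TIMP3. The median over 11766 genes was 0.93 per kb, and 91.5% held at least 1 match, so a match says little about a single gene. PLAUR had 0.65 per kb, and a relation between these densities and the changes was not tested. The match nearest to the stop codon is shown for the 4 members that rose, in 21 bases with GGACT in capitals.
PLAU: ctttttctGGACTgaagcctg
PLAUR: gagctatcGGACTggcttgaa
TIMP1: tgcaggatGGACTcttgcaca
TIMP2: ctctggatGGACTgggtcaca

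That of PLAU begins 264 bases after the stop codon, and those of TIMP2, TIMP1 and PLAUR begin 136, 279 and 767 bases before it. Among members that did not pass, that of MMP14 begins 36 bases after the stop codon. Those of MMP2, TIMP3 and MMP1 begin 303, 583 and 735 bases before it.

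The genes nearest to TIMP2 and PLAU by Euclidean distance of log2(TPM + 1) over the 6 libraries were listed as a description of pattern. Nearest to TIMP2, the most abundant member, were PSMD2 (distance 0.32), RAN (0.33) and LARP1 (0.37). Nearest to PLAU, the member with the largest log2 change, were MRPL47 (0.37), BNIP3L (0.37) and MGME1 (0.41). None of these 6 was higher past the threshold in the authors' deposited table, where RAN (-0.62) and MRPL47 (-0.41) were lower, so the likeness to PLAU did not extend to the poly(A) libraries.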

How the data were processed

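Trimmomatic, STAR, DESeq2 and hg38 are named in the submitters' processing notes, without versions. Annotation, counter and use of strand are not given in the sources used here. TPM values of the rRNA-depleted libraries were deposited by the authors, with the same total in each library. For the poly(A) libraries they deposited 1 comparison: per the file headers the mean normalized count (a pooled signal), the log2 fold change with its SE, the Wald score, and p-values before and after adjustment. It holds no single-library value and was not retested. Its direction is not stated. Positive was read as higher in knockout, since 91.5% of 177 genes past both thresholds with absolute log2 changes of at least 1 then had the same sign as in the other libraries.

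Columns of TPM were assigned to samples from the genotype and number in their names, and all were used. Gene lengths (GENCODE 29, GRCh38, 56927 genes) turned TPM into reads: 90.9% of values above 0 were whole within 0.02 reads, and so were all values of the 8 members. The limit of 3 reads covers counting error only, and the 95% intervals of log2 changes come from the fits' SE. limma 3.58.1 in R 4.3.3 (lmFit, eBayes with trend) was run on log2(TPM + 1), which understates changes of low genes, over genes that reached 1 TPM in 3 or more libraries, with Benjamini-Hochberg adjustment over all 14789 genes at 0.05. It was also run on simulated counts with a fixed spread and no shift over all genes. That run does not measure its error rate in these data. Ratios used a two-sided exact permutation test. Alternatives changed the pseudocount, filter, scaling, GC trend, test and libraries. Python 3.11.15, numpy 2.4.6, pandas 2.3.3, scipy 1.17.1 and matplotlib 3.10.9 were used.

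Members and lists were chosen with earlier results of these data known. Named are all members, METTL3, overlapping genes, marker genes, the nearest 3 genes, and list genes with an adjusted p under 0.05 and at least 5 TPM (50 normalized counts), up to 5 per direction and library type. PLG, MMP3, MMP7, MMP13, MMP19, MMP25, HTRA1 and ADAM33 were named after their values were seen. For 1 list gene, which is in the counts, no value or ratio is reported here. Other marker lists (astrocytes, neurons, endothelium) summed to at most 12.1 TPM in any library.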

Additional observations from a re-analysis of the deposited data

How the results depend on the processing

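Of 506 recomputed values, 438 kept their direction and their side of the threshold, or for counts stayed within 1.5 times. This tally includes ratios, which cannot pass 0.05 and so could not change side, and genes that were not called in either setting. Leaving out single libraries gave 0 to 4 members called higher, 5 to 14 list genes higher and 1 to 4 lower, and 1004 to 3356 genes higher and 659 to 1829 lower over all genes. The lowest of these came without knockout-labelled library 3, where that label is a single averaged sample assumed to vary like the wild type. Log2 changes over these settings ran from 1.75 to 2.05 for PLAU, 0.93 to 1.27 for PLAUR, 1.24 to 1.63 for TIMP1, 1.04 to 1.18 for TIMP2, -0.27 to 0.26 for TIMP3 and -0.37 to 1.15 for MMP1, and the MMP2 to TIMP2 ratio difference from -0.67 to 0.077. With an adjusted p under 0.01, 2 members and 7 list genes were higher and 2 list genes lower, with 1401 genes higher and 841 lower in all. The authors' deposited table had 1811 calls under 0.01, and under 0.05 with absolute log2 values of 1 or more it had 647, of which 1 member and 6 list genes. Median ratio scaling gave 8 list genes higher, log2 changes of 0.72 for PLAUR (adjusted p 0.0819), -0.0082 for MMP14, -0.32 for TIMP3 and -0.082 for CST3, and 48.6% of all calls higher against 64.8%. Quantile normalization (52.1% higher) gave 8 list genes lower, -0.046 for MMP1 and -0.40 for TIMP3. voom on reads (52.4% higher) gave 3509 genes and 12 list genes lower, -0.39 for MMP1, -0.33 for TIMP3 and -0.026 for CST3. With the GC trend removed MMP14 was 0.88 and passed, TIMP3 was -0.042 and CST3 was -0.0027. With a pseudocount of 0.1 the MMP1 to TIMP1 and MMP2 to TIMP2 ratio differences were 0.043 and 0.83. With 6 libraries separate MMP14 (0.38) passed. The cause of these changes was not tested, except that fewer samples remain without a library. The replicate block, with 6 libraries separate, gave 1.96 for PLAU (limma adjusted p 0.00389) and 4 members called, and same-numbered libraries had correlations of deviations of -0.02 to 0.02, so the numbers do not pair them. Depth limits MMP1 and MMP2, which no alternative called. A filter of at least 5 TPM in 3 libraries gave MMP1 and MMP2 no value.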
